A study of Mus musculus with 35 samples.

Results

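Chemokines are small secreted proteins that direct the movement of leukocytes, and microglia are among the cells of the brain that make them. They are grouped by the spacing of their first cysteines into CC ligands (Ccl) and CXC ligands (Cxcl), and most act through receptors that couple to Gi proteins. Ccl2 and Ccl12 bind Ccr2, the receptor of inflammatory monocytes. Ccl3, Ccl6 and Ccl9 act through Ccr1. Cxcl10 is an interferon-induced ligand of Cxcr3, Cxcl16 is a membrane-anchored ligand of Cxcr6, and Ccrl2 is an atypical receptor-like protein that holds chemerin at the cell surface without signalling itself.

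The 9 genes described here were 8 ligands, Ccl2, Ccl3, Ccl4, Ccl6, Ccl9, Ccl12, Cxcl10 and Cxcl16, and Ccrl2. They were looked up by symbol among the 21236 genes of the deposited count table, and all 9 were present in it. Microglia came from midbrain (12 samples), striatum (12 samples) and prefrontal cortex (PFC, 11 samples) of 12 adult mice, 6 male and 6 female, with the alleles Tmem119-2A-CreERT2 and Ai14(RCL-tdTomato)-D. All 12 carried both alleles and all had received tamoxifen, which switches on a red fluorescent protein where Cre is active. The tissue was dissociated with enzymes in a heated dissociator and tdTomato-positive cells were sorted, so the samples hold cells that had expressed Tmem119 and no untreated or Cre-negative group is part of the comparison. The PFC sample of 1 male was lost at dissociation. Total counts ran from 37680501 to 54131421 per sample, and the lowest count of any of the 9 genes in any sample was 476 (Cxcl10). Levels are in CPM, counts scaled to library size with TMM factors, on which scale a floor of 3 counts is 0.0561 to 0.0789. All 10 microglial marker genes listed were in the table, with a summed level of 38260 to 48635 CPM per sample, and 4 of them passed the region test, with higher values outside the midbrain where a pair was called. The column taken as the striatum of mouse 3 is named for the PFC but labelled striatum. Over 126 genes called between striatum and PFC without that mouse, it stood at 92.8% on a scale where the mean PFC sample is at the bottom and the mean striatum sample at the top, with the other striatum samples at 68.8% or more and the PFC samples at 28.5% or less. It is used here as striatum.

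Of the 9 genes, 7 lie on chromosome 11 of GRCm38. Ccl2 (11:82035571-82037453, plus strand) and Ccl12 (11:82101845-82103400, plus strand) are neighbours 64.4 kb apart. Ccl9 (11:83572919-83578636, minus strand), Ccl6 (11:83587882-83593087, minus strand), Ccl3 (11:83647844-83649355, minus strand) and Ccl4 (11:83662584-83664683, plus strand) form a further cluster, with 9.2 kb between Ccl9 and Ccl6 and 13.2 kb between Ccl3 and Ccl4. Cxcl16 lies apart at 11:70453983-70459984 on the minus strand, Cxcl10 at 5:92346638-92348889 on the minus strand and Ccrl2 at 9:111054486-111057519 on the minus strand. Promoter sequence from RefSeq (GRCm38.p6, 250 bases before to 50 bases after the start) was at hand for 6 of the 9 genes. Ccl12 and Cxcl10 are shown because they had the largest differences between regions of the 9 genes and differ in the motifs that were searched. Both are written 5′ to 3′ on the strand of the gene, with the motifs in capitals.

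Ccl12 (chr11:82101595-82101894, plus strand): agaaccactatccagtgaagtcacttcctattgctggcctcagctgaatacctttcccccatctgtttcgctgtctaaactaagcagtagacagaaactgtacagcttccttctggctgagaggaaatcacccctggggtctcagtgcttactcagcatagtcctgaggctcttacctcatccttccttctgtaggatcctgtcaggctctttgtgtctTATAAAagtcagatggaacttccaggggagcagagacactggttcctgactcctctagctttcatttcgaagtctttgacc

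Cxcl10 (chr5:92348840-92349139, minus strand): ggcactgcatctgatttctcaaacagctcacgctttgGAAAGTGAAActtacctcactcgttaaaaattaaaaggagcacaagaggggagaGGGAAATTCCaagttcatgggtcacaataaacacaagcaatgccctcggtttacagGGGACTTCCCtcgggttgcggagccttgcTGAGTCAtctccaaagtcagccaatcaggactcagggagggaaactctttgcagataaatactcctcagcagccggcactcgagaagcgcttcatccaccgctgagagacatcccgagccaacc

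In the Ccl12 window the capitals mark TATAAA at -31 to -26 from the start, a motif searched on the strand of the gene and held by 8.32% of all 32817 promoters in the RefSeq set. The Cxcl10 window held GAAAGTGAAA, a match to the interferon response core (GAAA, any pair of bases, GAAA), at -213 to -204. It also held the kappaB motif at -159 to -150 (GGGAAATTCC) and at -103 to -94 (GGGACTTCCC), and the AP-1 motif TGANTCA at -74 to -68. Searched on both strands, these motifs stood in 3.43%, 4.50% and 7.81% of all promoters, in the same order, and the matches in Cxcl10 did not overlap each other. Of the 6 genes with sequence, 3 held a kappaB match (Cxcl10, Ccl9 and 1 of the 3 listed starts of Ccrl2), and Cxcl10 alone held the interferon response core. The windows of Ccl3 and Ccl6 held no match to any of the motifs searched.

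Ccl4 was the most abundant of the 9 transcripts. Per kb of exon its mean level over the 35 samples was 4489 ± 1365 CPM per kb (SD). That placed it 6th of the 21103 genes with an annotated exon length, and Ccl3 followed at 1097 ± 378 CPM per kb. Next came Ccl12 with 325 ± 128 CPM per kb, Ccl2 with 205 ± 64.8, Ccrl2 with 185 ± 41.0 and Ccl6 with 142 ± 29.1. Ccl9 (53.5 ± 10.98 CPM per kb), Cxcl16 (38.3 ± 8.46 CPM per kb) and Cxcl10 (23.6 ± 11.4 CPM per kb) were the lowest. Cxcl10 still ranked 2074th of the 21103 genes. In this order of mean levels per kb, the gaps between Ccl12 and Ccl2 and between Ccl2 and Ccrl2 were smaller than the larger SD of the pair. Every other step between neighbours in this order exceeded it.

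**Figure D1:**
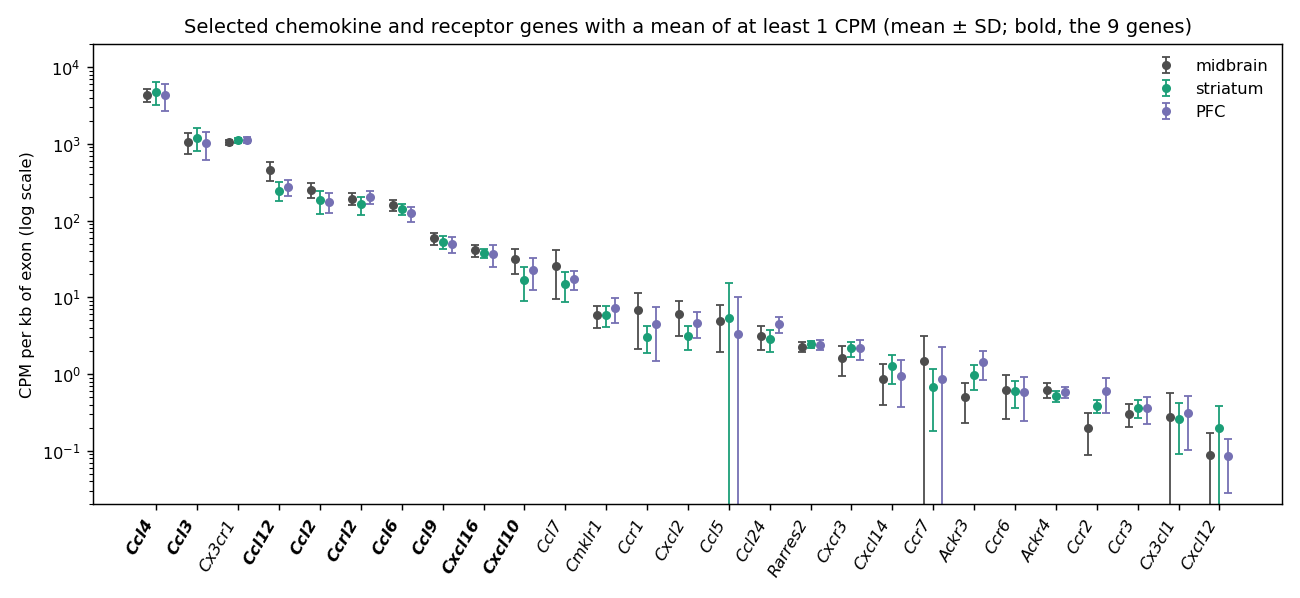
Mean level per kb of exon (CPM per kb, log axis) of the 9 genes and of some other chemokine ligands and receptors in midbrain, striatum and PFC, with bars of 1 SD, cut at the axis where the SD exceeds the mean. Ccl4 stands at the top with 4489 CPM per kb over all samples, and Ccl3 with 1097 lies close to the receptor Cx3cr1.

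Ccl12 was higher in midbrain than in striatum or PFC, and was the 1 gene of the 9 to pass the region test both with and without the mouse as a block. With the block Ccl2, Ccl6, Ccl9 and Cxcl10 passed as well, and with DESeq2 Ccl2 and Cxcl10. In midbrain microglia it ran from 165 CPM (lowest) through 241 (median) to 403 CPM (highest). Striatal samples ran from 58.3 through 126 to 193 CPM, and PFC samples from 115 through 139 to 236 CPM. Midbrain samples were the high ones, although the groups overlapped: 10 of 12 striatum samples and 9 of 11 PFC samples lay below the lowest midbrain sample. Among all genes, 0.297% had midbrain samples wholly apart from striatum and 0.476% wholly apart from PFC. The group means were 243 ± 65.4 CPM in midbrain (SD, n = 12), 132 ± 36.9 in striatum (n = 12) and 147 ± 34.2 in PFC (n = 11). In the edgeR quasi-likelihood test over all genes the region effect on Ccl12 had an adjusted p of 6.25e-05. Compared to midbrain, Ccl12 fell by 0.88 on the log2 scale in striatum (SE 0.15, 1.84-fold) and by 0.72 in PFC (SE 0.15, 1.65-fold). Striatum and PFC differed by -0.16 (SE 0.15, 95% interval -0.45 to 0.13), which did not pass. Within the same animals Ccl12 was lower than in midbrain in 11 of 12 striatum samples and 10 of 11 PFC samples, mouse 9 being the exception in both. The lowest striatal value belonged to mouse 3, and without that sample the region effect had an adjusted p of 1.54e-05.

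In the edgeR fit without the block, Ccl12 was the 1 of the 9 genes to pass the region test (1 of 9, against 8.89% of all genes tested), and it was called lower in PFC (1 of 9; 3.24% of all genes were called lower) and lower in striatum (1 of 9; 2.98% of all genes). Between striatum and PFC 0 of the 9 genes were called, against 3.14% of all genes, with 1 of 9 at an unadjusted p under 0.05 (Ccrl2) and 0 called by DESeq2. A pair of regions was called where the region effect passed, the unadjusted p was under 0.05 and the fold change was over 1.2. The median log2 difference of the 9 genes was -0.26 for PFC against midbrain and -0.17 for striatum against midbrain, where the median of all genes was 0.01 in both, and 8 and 7 of the 9 genes had lower values than in midbrain. In bulk RNA, fewer cells of a kind that express a gene and less RNA per cell cannot be told apart.

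**Figure D2:**
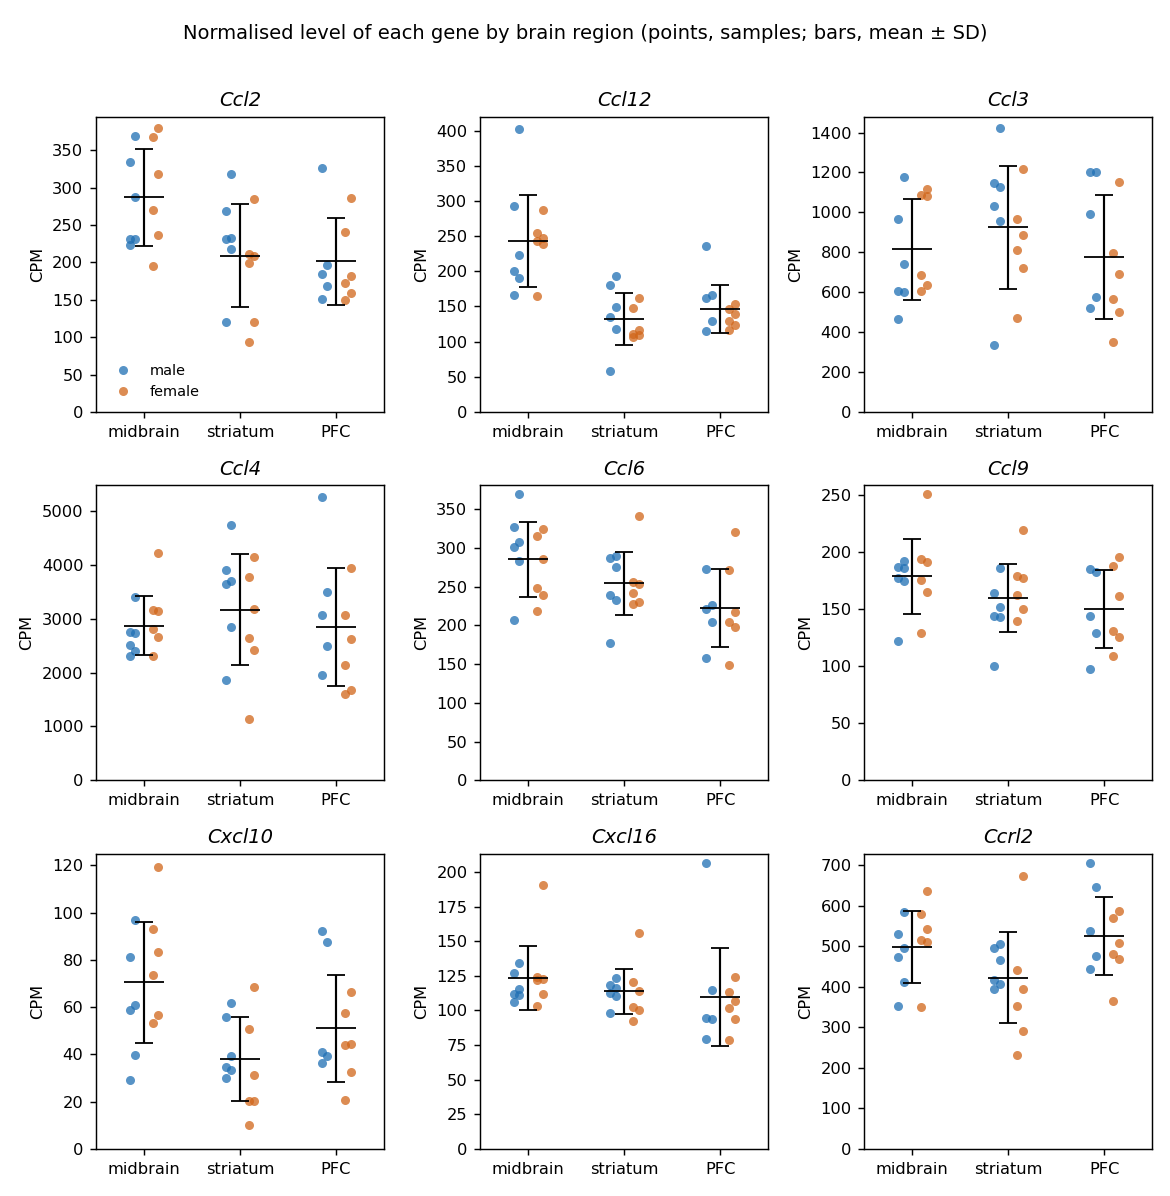
Level of each of the 9 genes (CPM) in every sample by region, each point a sample, with the mean and SD. For Ccl12 most striatum and PFC points lie under the lowest midbrain point of 165 CPM, while Ccl3, Ccl4 and Cxcl16 overlap over most of their range.

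The test depends on whether samples that share a number in their titles, taken here as 1 mouse, are treated as matched. With the mouse as a block, 5 of 9 genes passed the region test, Ccl2, Ccl6, Ccl9, Ccl12 and Cxcl10, and the share over all genes was 14.0% in place of 8.89%. In that fit 4 genes were called lower in PFC than in midbrain (Ccl2, Ccl6, Ccl12 and Cxcl10; 3.77% of all genes) and 3 lower in striatum (Ccl2, Ccl12 and Cxcl10; 3.47% of all genes). Between striatum and PFC 0 of 9 passed, against 4.86% of all genes. The calls with the block varied with the animals used: without mouse 2 the number that passed the region test was 3. Among mice 1 to 6 alone and mice 7 to 12 alone, without the block, Ccl12 was the 1 gene that passed, with adjusted p of 0.0128 and 0.0166.

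**Figure D3:**
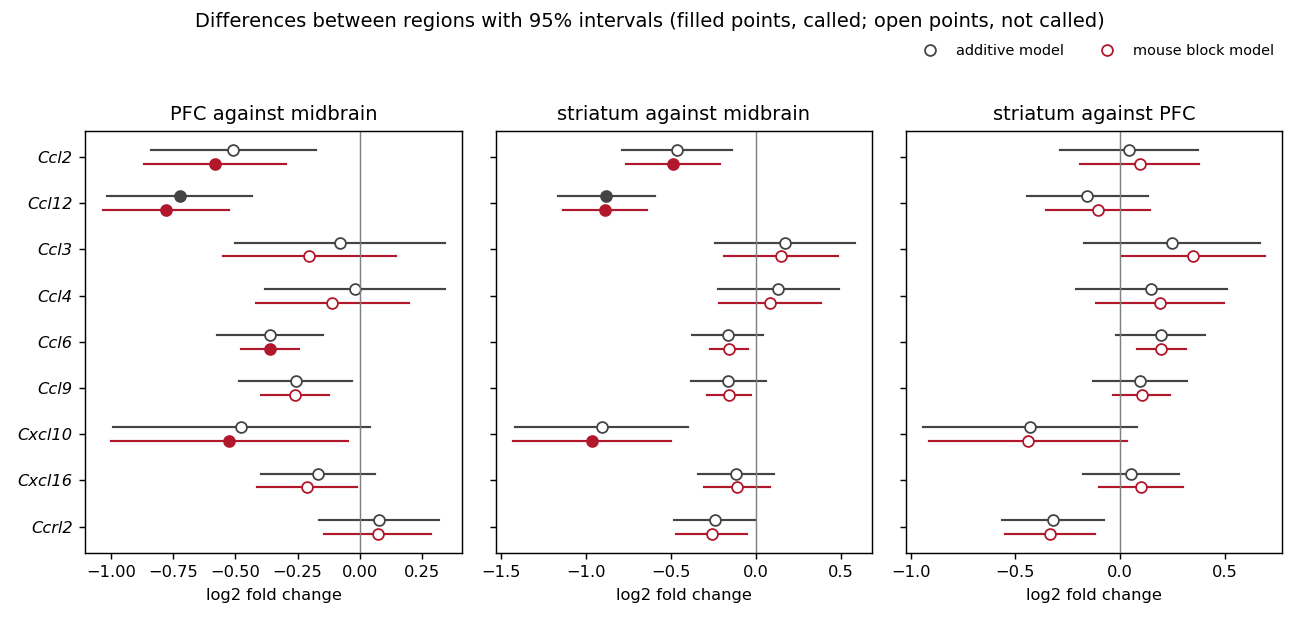
Log2 fold change of each of the 9 genes between pairs of regions, with 95% intervals, from the edgeR fit without the mouse as a block and the fit with it. Ccl12 lies at -0.88 in striatum and -0.72 in PFC against midbrain without the block, and without the block all intervals of Ccl3 and Ccl4 include 0. Filled points were called.

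Ccl2, the neighbour of Ccl12, ran from 195 through 279 to 380 CPM in midbrain (lowest, median, highest). Its striatum samples ran from 93.6 through 215 to 319 CPM, and its PFC samples from 150 through 182 to 327 CPM. Midbrain samples tended to be high, with 7 of 11 PFC samples and 3 of 12 striatum samples below the lowest of them, and the rest overlapped. Against midbrain the log2 difference was -0.51 in PFC (SE 0.17) and -0.47 in striatum (SE 0.17), and the region effect had an edgeR adjusted p of 0.0613. With the mouse as a block the adjusted p was 0.0102, with log2 differences of -0.58 (SE 0.15) in PFC and -0.49 (SE 0.14) in striatum. Ccl2 was lower in PFC than in midbrain in 11 of 11 mice, and lower in striatum in 9 of 12. Across mice, no relation between Ccl2 and Ccl12 passed in midbrain (Pearson's r = -0.0670, Spearman's rho = -0.0769, n = 12, permutation p adjusted over 18 relations 0.838 and 0.816). In that region mice 1 to 6 gave an r of 0.715 and mice 7 to 12 an r of -0.873 (exact permutation p = 0.0236 and 0.0278, unadjusted). In striatum r was 0.351 and in PFC 0.562, with adjusted p of 0.366 and 0.119.

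Cxcl10 had the widest spread on the log2 scale of the 9 genes. Midbrain samples ran from 29.3 through 67.3 to 119 CPM, striatum samples from 10.2 through 33.9 to 68.5 CPM and PFC samples from 20.9 through 43.8 to 92.2 CPM. Midbrain stood highest and striatum lowest, with wide overlap: 6 midbrain samples lay above the highest striatum sample. The log2 difference from midbrain was -0.91 in striatum (SE 0.26) and -0.48 in PFC (SE 0.26), and the region effect had an edgeR adjusted p of 0.0542. With the mouse as a block it was 0.0199, and both differences from midbrain were called, at -0.96 (SE 0.24) in striatum and -0.52 (SE 0.24) in PFC. The call in PFC was lost in 8 of 12 fits that each left out a mouse, and without the striatum sample of mouse 3. Cxcl10 was lower than in midbrain in 11 of 12 striatum and 10 of 11 PFC samples of the same mice, with mouse 5 the exception in both. A further fit had as a covariate the mean log2 level of 23 genes known to respond to enzymatic dissociation. The edgeR adjusted p of the region effect for Cxcl10 was then 0.172 without the block and 0.0715 with it. Striatum against midbrain was -0.70 (SE 0.25) without the block and -0.60 (SE 0.19) with it. For PFC the values were -0.38 (SE 0.24) and -0.34 (SE 0.18). That mean was itself higher in midbrain (9.72 ± 0.33) than in striatum (9.45 ± 0.42), and the part of dissociation was not tested.

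**Figure D4:**
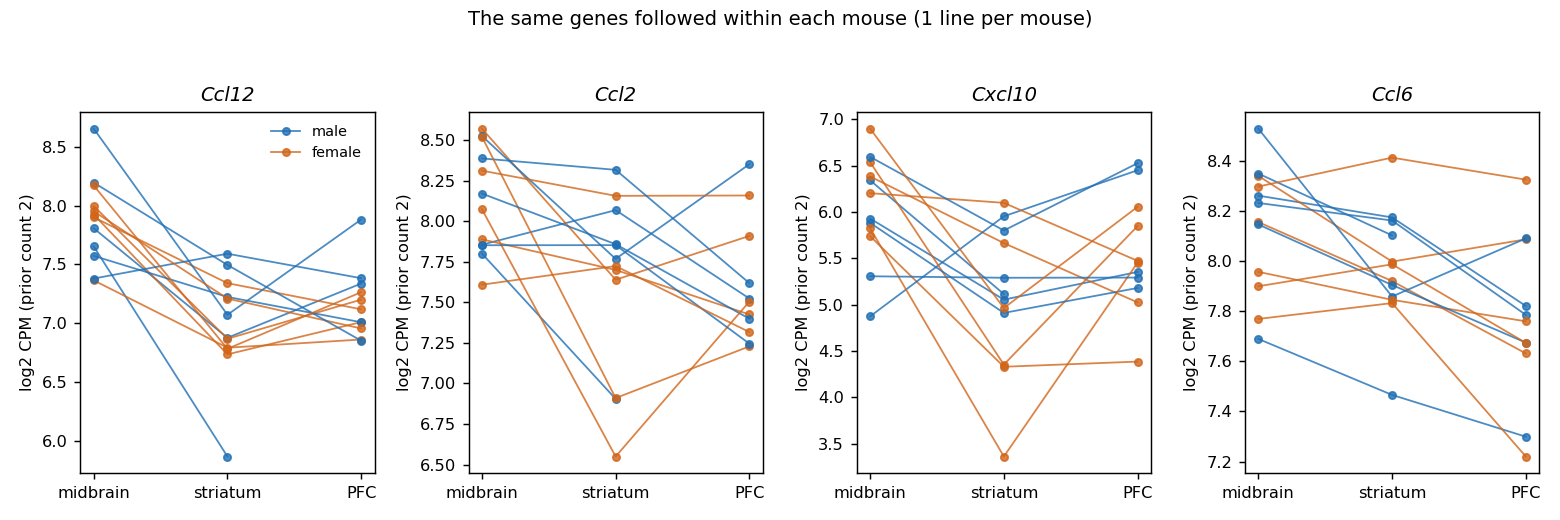
Levels of Ccl12, Ccl2, Cxcl10 and Ccl6 in the regions of each mouse (log2 CPM, prior count 2), lines joining samples of the same animal. From midbrain to striatum the line goes down in 11 of 12 mice for Ccl12 and for Cxcl10, and in 9 of 12 for Ccl2 and for Ccl6.

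Ccl6 and Ccl9, neighbouring genes whose products attract myeloid cells, had small differences between regions. Their SDs of log2 CPM between mice, pooled over regions, were 0.28 and 0.30. The median SD of genes with a mean of at least 10 CPM was 0.22. Ccl6 ran from 206 through 293 to 369 CPM in midbrain, from 177 through 248 to 341 CPM in striatum and from 149 through 217 to 321 CPM in PFC. PFC samples were the low ones, with 5 of 11 below the lowest midbrain sample. The log2 difference for PFC against midbrain was -0.36 (SE 0.11), the region effect had an edgeR adjusted p of 0.0767, and with the mouse as a block it was 3.91e-04 and the PFC difference was called. Within mice Ccl6 was lower in PFC than in midbrain in 10 of 11 animals and lower in striatum in 9 of 12. Ccl9 ran from 122 through 181 to 250.4 CPM in midbrain, from 99.7 through 157 to 219 CPM in striatum and from 97.7 through 144 to 195 CPM in PFC. The 3 regions overlapped for most of this range. For Ccl9 the adjusted p was 0.316, and 0.0263 with the block, where the PFC difference of -0.26 (SE 0.07) stayed under the 1.2-fold limit at 1.198-fold. Both genes also differed between animals: in mice 7 to 12 against mice 1 to 6, a split made here by mouse number that the labels do not name, Ccl6 had a log2 difference of -0.33 (SE 0.07, edgeR adjusted p = 4.06e-04) and Ccl9 of -0.28 (SE 0.08, adjusted p = 0.00808). These were 2 of 9 genes, against 23.9% of all genes tested, so such a difference was not particular to these genes. That fit takes the 35 samples as units although up to 3 come from a mouse. With 1 mean per mouse, 6 against 6, the differences were -0.33 and -0.29, with two-sided exact permutation p of 0.00649 and 0.0433, not adjusted.

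Ccl3 and Ccl4, the macrophage inflammatory protein pair, had no region difference that passed. Ccl4 ran from 2309 through 2741 to 4213 CPM in midbrain, from 1135 through 3411 to 4730 CPM in striatum and from 1602 through 2618 to 5265 CPM in PFC. Ccl3 ran from 466 through 715 to 1177 CPM in midbrain, from 336 through 959 to 1424 CPM in striatum and from 350 through 690 to 1201 CPM in PFC. The 3 regions overlapped over most of the range for both genes. The edgeR adjusted p of the region effect was 0.859 for Ccl4 and 0.761 for Ccl3. The 95% interval of the log2 difference between striatum and midbrain was -0.22 to 0.49 for Ccl4 and -0.24 to 0.58 for Ccl3. For PFC against midbrain the interval was -0.38 to 0.34 for Ccl4 and -0.50 to 0.34 for Ccl3. Within mice, Ccl4 was lower than in midbrain in 5 of 12 striatum and 7 of 11 PFC samples.

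Cxcl16 ran from 103 through 119 to 191 CPM in midbrain, from 92.3 through 113 to 156 CPM in striatum and from 78.7 through 102 to 207 CPM in PFC. Low samples came from PFC and striatum, with 6 of 11 PFC and 4 of 12 striatum samples below the lowest midbrain sample, and the groups overlapped. The edgeR adjusted p was 0.638. The log2 differences were -0.12 (SE 0.11) in striatum and -0.17 (SE 0.12) in PFC against midbrain.

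Ccrl2, the receptor-like member, was the 1 gene of the 9 with a positive log2 difference for PFC against midbrain. That difference was smaller than its SE (0.08, SE 0.12, edgeR unadjusted p = 0.536) and was not called. Ccrl2 ran from 349 through 513 to 637 CPM in midbrain, from 232 through 411 to 674 CPM in striatum and from 365 through 507 to 704 CPM in PFC. Its median was thus slightly lower in PFC than in midbrain. Striatum samples tended to be low, and the groups overlapped. The log2 difference for striatum against PFC was -0.32 (SE 0.12, unadjusted p = 0.0139), and the region effect had an edgeR adjusted p of 0.191. Within mice Ccrl2 was lower in striatum than in midbrain in 10 of 12 animals and lower in PFC in 6 of 11.

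Sex was compared because both sexes were sampled in each region. Of the 9 genes 0 were called between males and females, against 4.13% of all genes at an unadjusted p under 0.05 and a fold change over 1.2, and 0 reached an unadjusted p under 0.05 in edgeR or were called by DESeq2. The male minus female log2 difference ran from -0.11 for Ccl9 (SE 0.09, edgeR adjusted p = 0.889) to 0.15 for Ccl3 (SE 0.17, edgeR adjusted p = 0.943). For Ccl12 it was 0.14 (SE 0.12). These tests take samples as units although samples share mice, and with 1 mean per mouse the two-sided exact permutation p ran from 0.50 for Ccrl2 to 0.944 for Cxcl16. The interaction of sex and region was called for 0 genes of the table (0.00%) in edgeR, with 632 genes at an unadjusted p under 0.05, and for 1 gene in DESeq2. For the 9 genes its unadjusted p in edgeR ran from 0.231 for Cxcl10 to 0.765 for Ccl12.

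Ccl3 and Ccl4 varied together between mice in each region. Ccl3 and Ccl4 had a Pearson's r of 0.755 in midbrain, 0.866 in striatum and 0.924 in PFC, with Spearman's rho of 0.685, 0.860 and 0.964 (permutation p for r, adjusted over 18 relations, 0.00951, 0.00367 and 0.00108). Without the 2 samples farthest from the median of Ccl3, r was 0.673, 0.826 and 0.911. Within mice 1 to 6 and mice 7 to 12, r was 0.929 and 0.967 in midbrain and 0.925 and 0.985 in striatum. In PFC mice 7 to 12 had 0.935, and mice 1 to 6 left too few samples for a value. Ccl6 and Ccl9 had r of 0.815, 0.884 and 0.819 in midbrain, striatum and PFC, with rho of 0.832, 0.825 and 0.755 (adjusted permutation p for r 0.00367, 0.00367 and 0.00522). Their relation in midbrain was not seen within mice 1 to 6 (r = 0.115), where mice 7 to 12 had 0.886, and without the 2 samples farthest from the median of Ccl6 r was 0.519 in midbrain and 0.528 in striatum. In striatum the same sets gave 0.776 and 0.901, and in PFC 0.756 within mice 7 to 12. Both genes differ between those 2 sets of mice, as did 23.9% of all genes tested.

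**Figure D5:**
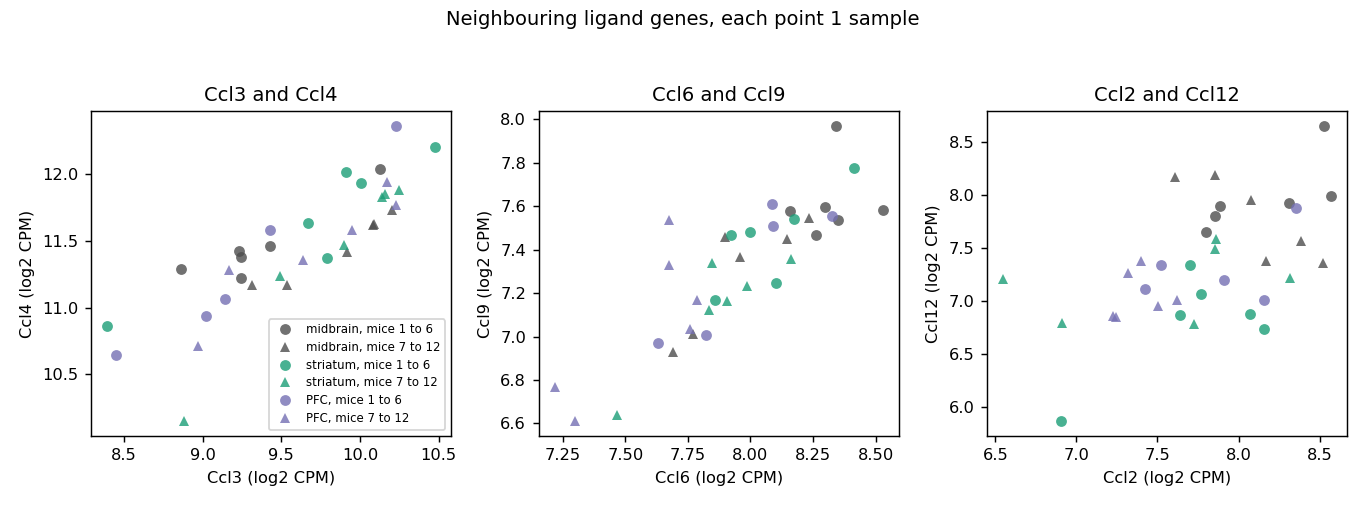
Log2 CPM of the neighbouring pairs in every sample, 1 point per sample, coloured by region, with circles for mice 1 to 6 and triangles for mice 7 to 12. Ccl3 and Ccl4 vary together in each region (r from 0.755 to 0.924). Ccl6 and Ccl9 do so over all mice of a region (r from 0.815 to 0.884), but not in midbrain within mice 1 to 6 (r = 0.115). Ccl2 and Ccl12 form no line in midbrain.

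Over the 35 samples, the genes most like each of the 9 in log2 CPM were found among 12260 genes. For Cxcl10 they were Art3 (r = 0.973), Il1b (0.896) and Tnfsf9 (0.882), and for Cxcl16 they were Zmynd15 (0.949), Lmna (0.801) and Bcl3 (0.769). Art3 and Zmynd15 overlap the exons of these genes on the opposite strand, over 133 bases (5.91% of the Cxcl10 exons) and 552 bases (18.3% of the Cxcl16 exons). The Smart-Seq and Nextera libraries keep no strand, so reads from the shared bases cannot be told apart. Art3 had a mean of 11.1 CPM and Zmynd15 of 21.0 CPM. Ccrl2 was most like Gem (0.890), Ccl12 most like Pdcd1 (0.767) and Ccl2 most like D6Wsu163e (0.674). These correlations are descriptions over samples that share animals and preparations.

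Among the receptors of these ligands, Ccr1 was 19.3 ± 13.3 CPM in midbrain, 8.66 ± 3.39 in striatum and 12.7 ± 8.47 in PFC. It fell in striatum by 1.10 on the log2 scale (SE 0.30; region effect adjusted p = 0.0409 in edgeR) and was lower than in midbrain in 11 of 12 mice. Ccr2, the receptor of Ccl2 and Ccl12, was scarce, at 1.34 ± 0.747 CPM in midbrain, 2.59 ± 0.515 in striatum and 4.05 ± 1.94 in PFC. It rose against midbrain by 1.59 in PFC (SE 0.29) and by 0.95 in striatum (SE 0.28; adjusted p = 8.26e-04 in edgeR), and was higher in striatum than in midbrain in 12 of 12 mice. Ccr2 is also a marker of monocytes, and of the 5 monocyte markers in the table the other 4 had lower values in PFC and in striatum, with Ms4a4c and Ly6c2 called lower in each (Ms4a4c alone with the mouse as a block). Of those 4, Ms4a4c alone had a mean of at least 1 CPM over all samples. Ackr3, an atypical receptor that takes up Cxcl12, rose by 1.48 in PFC (SE 0.31) and 0.93 in striatum (SE 0.30; adjusted p = 0.00383 in edgeR), from 1.68 ± 0.900 CPM in midbrain. Cxcr3, the receptor of Cxcl10, was at 2.80 ± 1.16, 3.74 ± 0.822 and 3.76 ± 1.11 CPM in midbrain, striatum and PFC and did not pass (adjusted p = 0.257 in edgeR), and Cxcr6, the receptor of Cxcl16, was near the floor in all 3 regions. Of the 22 other receptors listed, 16 were in the table, and Ccr1, Ccr2 and Ackr3 were the 3 that were called, against 8.89% of all genes for the region test. Of 30 other ligands, 18 were in the table and 2 were called: Ccl24 (4.05 ± 1.36, 3.70 ± 1.15 and 5.76 ± 1.33 CPM in midbrain, striatum and PFC, adjusted p = 0.0174 in edgeR) and Ccl8, which was under 3 counts in 7 of 12 midbrain, 12 of 12 striatum and 9 of 11 PFC samples. Of the chemerin system that Ccrl2 belongs to, 2 of 3 genes were in the table, Cmklr1 and Rarres2, and 0 were called.

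Gene groups that act with these members were taken from lists, whose counts stand beside the 8.89% of all genes that passed the region test, or 14.0% with the mouse as a block. Of 15 interferon-response genes, 5 passed the region test, and all 5 were called lower in both PFC and striatum. With the block 11 of 15 passed, 10 called lower in PFC and 11 in striatum. Isg15, a secreted ubiquitin-like protein, was 9.31 ± 7.06 CPM in midbrain, 4.48 ± 1.55 in striatum and 4.90 ± 1.94 in PFC (edgeR adjusted p = 0.00613). The median log2 difference of the list was -0.92 in PFC and -1.01 in striatum against midbrain, where the median of all genes was 0.01. Across mice, Cxcl10 and the mean log2 level of 14 of these genes had r of -0.297, 0.558 and 0.588 in midbrain, striatum and PFC, with adjusted p of 0.443, 0.119 and 0.119, and rho of 0.182, 0.706 and 0.727, with adjusted p of 0.687, 0.0323 and 0.0323 (permutation tests). Mice 1 to 6 gave an r of -0.732 in midbrain and 0.927 in striatum, and mice 7 to 12 an r of 0.602, 0.571 and 0.286 in the 3 regions. Without the 2 samples farthest from the median of Cxcl10, r was 0.553, 0.505 and 0.463. In midbrain, mouse 5 had the highest mean log2 level of the 14 genes, 5.52, where the other midbrain samples ran from 3.08 to 4.46. The same sample had the lowest Cxcl10 in midbrain, 29.3 CPM. It stood apart in other ways too. Its mean log2 level of the dissociation-response genes was the lowest in midbrain, 8.83, where the others ran from 9.52 to 10.13. Its Ccl12 (403 CPM) and Ccl6 (369 CPM) were the highest in midbrain.

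Of 15 genes of NF-kappaB signalling and its early targets, 3 passed, Il1a, Nfkb1 and Tnf, and 5 passed with the block. Il1a, an inflammatory cytokine, fell by 0.82 in striatum (SE 0.19), from 3130 ± 828 CPM in midbrain to 1781 ± 616. Tnf fell there by 0.68 (SE 0.19; region effect adjusted p = 0.00857 for Il1a and 0.0477 for Tnf in edgeR). In PFC against midbrain neither was called, at -0.19 (SE 0.19) for Il1a and -0.32 (SE 0.19) for Tnf. Nfkb1 was called in no pair and was highest in PFC, at 202 ± 18.1 CPM in midbrain, 191 ± 14.7 in striatum and 222 ± 17.4 in PFC. Of 21 genes of chemokine receptor signalling 1 passed, Pik3r5, a regulatory subunit of the Gi-coupled phosphoinositide kinase, which rose by 0.26 in striatum (SE 0.08, edgeR adjusted p = 0.0494), and 3 passed with the block.

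A list of 23 genes known to respond to enzymatic dissociation, immediate early genes for the most part, was followed because Ccl3 and Ccl4 are also known to do so. Of these genes 1 passed, Klf6, at 1578 ± 304 CPM in midbrain, 939.7 ± 195 in striatum and 1109 ± 193 in PFC (edgeR adjusted p = 1.66e-05). In striatum 18 of the 23 had lower values than in midbrain, with a median log2 difference of -0.23. With the mouse as a block 6 of 23 passed, among them Ier2 and Klf2 (adjusted p = 0.00854 and 0.0290 in edgeR), and 4 were called lower in striatum. Their mean log2 CPM was 9.72 ± 0.33 in midbrain, 9.45 ± 0.42 in striatum and 9.62 ± 0.19 in PFC. Ccl4 followed that mean across mice in striatum (r = 0.873, rho = 0.720, n = 12, adjusted permutation p 0.00297 and 0.0313) but the relation did not pass in midbrain (r = 0.112, rho = -0.0979, adjusted p 0.757 and 0.812) or in PFC (r = 0.569, rho = 0.536, n = 11, adjusted p 0.119 and 0.171). In striatum the 2 sets of mice gave r of 0.801 and 0.899, and r was 0.678 without the 2 samples farthest from the median of Ccl4. Ccl2 had r of -0.183, 0.509 and 0.240 with the same mean in midbrain, striatum and PFC, with adjusted p of 0.689, 0.136 and 0.567. A fit with the block and this mean as a covariate was an alternative chosen after the data were seen. In it Ccl3 and Ccl4 passed the region test (edgeR adjusted p = 1.19e-04 and 0.00310). Striatum was above midbrain by 0.47 (SE 0.09) and 0.35 (SE 0.08) and above PFC by 0.53 (SE 0.09) and 0.35 (SE 0.08). Within mice and without the covariate, striatum minus midbrain averaged 0.15 for Ccl3 (SD 0.67) and 0.07 for Ccl4 (SD 0.56). The adjusted values thus depend on the covariate, which was itself lower in striatum. The part of dissociation in the levels of these genes was not tested.

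Markers of other cells differed between regions. For monocytes 5 of 6 markers were in the table (Chil3 was not, and Ccr2 is 1 of the 5), with a summed level of 4.46 to 23.7 CPM in midbrain, 3.27 to 8.10 in striatum and 4.38 to 12.7 in PFC. Their median log2 difference from midbrain was -1.27 in PFC and -1.49 in striatum. Only 2 of the 5, Ms4a4c and Ccr2, had a mean of at least 1 CPM over all samples, so that median rests largely on scarce genes. Ms4a4c, the most abundant in midbrain, had a mean of 6.01 CPM there, 2.12 in striatum and 2.45 in PFC. For neurons 8 of 8 markers summed to 1.11 to 5.91 CPM in midbrain, 4.73 to 12.9 in striatum and 11.04 to 27.1 in PFC, and for astrocytes 10 of 10 summed to 221 to 287, 279 to 515 and 272 to 580 CPM. Border macrophage markers (7 of 8, Lyve1 not in the table) ran from 75.7 to 211 CPM in midbrain, 96.9 to 182 in striatum and 85.8 to 129.8 in PFC, most of it Stab1, with Mrc1 near 4 to 6 CPM on average. Markers of T and NK cells (4 of 6 in the table, Cd3e and Cd3g not) summed to at most 4.43 CPM. Neutrophil markers (3 of 6) summed to at most 0.962 CPM outside PFC, with 1 PFC sample at 42.2 CPM. Oligodendrocyte markers (7 of 7) ran from 304 to 511, 300 to 855 and 231 to 529 CPM and endothelial markers (7 of 7) from 9.23 to 55.1, 20.7 to 79.4 and 15.5 to 38.8 CPM in midbrain, striatum and PFC. Their part in the differences of Ccl12, Ccl2, Cxcl10 and Ccr2 was not tested.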

How the data were processed

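The authors deposited raw counts per Ensembl gene, one column for each of 35 samples of sorted mouse microglia. RNA was made into Smart-Seq HT and Nextera XT libraries, and the reads were trimmed with Trimmomatic and aligned to GRCm38 with HISAT2, according to the study's methods and the submitters' processing notes. FastQC was also named there. How reads were counted on genes, which annotation was used, whether strand was read and what was done with reads of several matches were not given in the sources used here. Genes with low counts had been removed before deposit.

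Symbols and exon lengths came from the GENCODE annotation of GRCm38, where 133 of 21236 genes had no symbol. CPM used TMM factors, and log2 CPM a prior count of 2. Models were fitted with edgeR 4.0.16 under R 4.3.3 (robust quasi-likelihood, region and sex, all genes, Benjamini-Hochberg) and tested on simulated data, with DESeq2 1.42.0 as an alternative. The region effect needed an adjusted p under 0.05. Standard errors, 95% intervals and p-values of fits without the mouse as a block describe the spread between samples, several of which share a mouse. Intervals are normal approximations. Permutation tests used 1e+05 resamples, or were exact within mice 1 to 6 and 7 to 12 and over means per mouse (log2 CPM less the region means), which were added after the data were seen. Likeness was Pearson's r over samples. Genes named from the related lists were those that passed or ranked first by adjusted p. Tables were made with data.table (1.17.8) and figures with Python 3.11.15, numpy 2.4.6 and matplotlib 3.10.9.

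Samples carry a number in their titles, which was taken as the mouse number. Samples of different regions with the same number were taken as coming from the same animal. As a check, deviations from the group means were correlated. The r averaged 0.225 where the number was shared (34 pairs, 27 of them over 0.1). It averaged -0.0431 where it was not (170 pairs of the same sex and different regions, 38 of them over 0.1). Some genes of the lists are not reported here. The members and lists were chosen with earlier results of these data known.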

Additional observations from a re-analysis of the deposited data

Results flagged for a closer look

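In 54 groups of 5 or 6 samples of the same region and sex, 6 members had a sample apart from the rest by Dixon's criterion, which chance alone meets in about 1 of 20 groups. In the striatum of males, Ccl3 was lowest in mouse 3 at 336 CPM, where the others ran from 955 to 1424 CPM. In the striatum of females, Ccl6 was highest in mouse 6 at 341 CPM, where the others ran from 228 to 256 CPM. In the midbrain of males, Ccl9 was lowest in mouse 7 at 122 CPM, where the others ran from 175 to 192 CPM. The other 3 samples were from the midbrain of females: Ccl12 was lowest in mouse 8 at 165 CPM (others 239 to 288 CPM), Cxcl16 was highest in mouse 6 at 191 CPM (others 103 to 124 CPM) and Ccrl2 was lowest in mouse 2 at 349 CPM (others 510.3 to 637 CPM).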

How the results depend on the processing

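Ccl12 passed the region test under every alternative run, and the other calls depended on the settings. Of the 9 genes 1 passed the region test and 1, 1 and 0 were called for PFC against midbrain, striatum against midbrain and striatum against PFC. With DESeq2, with edgeR's filterByExpr and with at least 10 counts in every sample, 3 passed (Ccl2 and Cxcl10 as well) and 2 and 3 were called against midbrain. With the mouse as replicate block, which pairs the samples of an animal, 5 passed and 4 and 3 were called, and with a term for mice 1 to 6 against 7 to 12, 3 passed and 3 and 2 were called. With an adjusted p for the pair and no minimum fold, 2 were called in PFC against midbrain and 2 in striatum against midbrain. In PFC they were Ccl12 and Ccl6 (edgeR adjusted p = 0.0375 for Ccl6), and in striatum Ccl12 and Cxcl10 (edgeR adjusted p = 0.0265 for Cxcl10). Mice 1 to 6 alone gave 1 call between striatum and PFC (Ccl12). Leaving out each mouse gave 1 to 3 passing the region test, 1 to 3 and 1 to 2 called against midbrain and 0 to 1 between striatum and PFC. Without mouse 5 or mouse 10 Cxcl10 passed as well, and without mouse 6 Ccl2 and Ccl6 did.

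The block fit was also varied, after the data were seen. Leaving out each mouse gave 3 to 6 passing, 3 to 6 and 2 to 4 against midbrain and 0 to 2 between striatum and PFC. Ccl9 was lost without mouse 2, 4, 7 or 9, and Cxcl10 without mouse 2 or 12. The PFC call of Cxcl10 was lost without mouse 1, 2, 3, 4, 6, 7, 10 or 12, and without the striatum sample of mouse 3. Mice 1 to 6 alone gave 1 passing and 1, 1 and 1 called, mice 7 to 12 alone 2 passing and 2, 1 and 1 called, and the dissociation-gene mean as a covariate 6 passing, with Ccl3 and Ccl4 gained and Cxcl10 lost, and 2 calls between striatum and PFC (Ccl3 and Ccl4).

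Some differences that were not called changed sign. In mice 1 to 6 alone the striatum minus PFC value of Ccl2 was -0.15 (-0.035 with the block). In mice 7 to 12 alone PFC minus midbrain was 0.0062 for Ccl4 and 0.015 for Cxcl16, striatum minus midbrain -0.033 for Ccl3 and 0.022 for Cxcl16, and striatum minus PFC 0.14 for Ccl12. With the block these mice gave -0.031 for Ccl3, -0.036 for Ccl4 and 0.018 for Cxcl16 in striatum minus midbrain, and -0.012 for Ccl4 and 0.13 for Ccl12 in striatum minus PFC. The dissociation-gene covariate gave 0.029 for Ccl4 in PFC minus midbrain, and 0.0015 with the block. Leaving out each mouse moved Ccl4 from -0.16 to 0.037 in PFC minus midbrain, Ccl2 from -0.020 to 0.14 and Cxcl16 from -0.00059 to 0.18 in striatum minus PFC, and Ccrl2 from -0.0039 to 0.11 in PFC minus midbrain with the block.
The male minus female value was -0.091 for Ccl2, -0.0029 for Ccl6 and -0.099 for Cxcl16 in mice 1 to 6 alone, -0.014 for Cxcl10 in mice 7 to 12 alone, -0.0016 for Cxcl16 with the covariate and -0.00011 for Ccl6 without the striatum of mouse 3. With 1 mean per mouse it was -0.0077 for Cxcl16. Leaving out each mouse moved it from -0.0050 to 0.21 for Ccl2, -0.045 to 0.10 for Ccl6, -0.044 to 0.21 for Cxcl10, -0.10 to 0.053 for Cxcl16 and -0.019 to 0.14 for Ccrl2. With a filter or covariate, the cause of a changed call was not tested. All members lay well above the counting floor, so depth limits only scarce family genes such as Ccl8 and Cxcr6.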

Other observations

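Chemokine transcripts varied more between mice of a region than most genes with a mean of at least 10 CPM. The SD of log2 CPM between mice, pooled over regions, was 0.66 for Cxcl10, 0.56 for Ccl3, 0.47 for Ccl4, 0.44 for Ccl2 and 0.39 for Ccl12, at percentiles 98.4, 97.3, 95.5, 93.8 and 91.2 of the 8114 such genes, whose median SD was 0.22. Ccrl2, Ccl9, Cxcl16 and Ccl6 had SDs from 0.28 to 0.32. After the region means were removed, Cxcl10 and Ccrl2 had an r of 0.85 over the 35 samples, close to the 0.86 of Ccl3 and Ccl4 and the 0.83 of Ccl6 and Ccl9. Cxcl10 and Ccrl2 lie on different chromosomes, and the neighbours Ccl2 and Ccl12 had an r of 0.29. Cxcl16 and Ccrl2 had an r of 0.68. These values are descriptions over samples that share animals.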
